A study of Mus musculus with 2 samples.

Results

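The suppressors of cytokine signaling (SOCS) form a family of 8 genes, Cish and Socs1 to Socs7, which were selected by symbol from an expression table of 34295 genes; each stood on 1 row. Poly(A) RNA had been sequenced from 2 kinds of wild-type C57BL/6J cells, with a single library for each (1 per cell type). The embryonic fibroblasts derived from E13.5 to E14.4 embryos without head and red organs, were sorted to remove cells that carry leukocyte and macrophage surface proteins, CD45 among them, and were used at passage 4 to 7 in DMEM medium with 10% serum. Bone marrow derived macrophages were differentiated from whole marrow of femurs and tibias for 6 days in RPMI medium with 10% serum and 30% medium conditioned by L929 cells, a fibroblast line used as a source of the macrophage growth factor CSF1. Both were collected after a night in culture, and no stimulus beyond the media is stated. The values are transcripts per 1000000 transcripts (TPM), which are scaled to gene length and so allow levels of different genes to be compared. With 1 library per cell type no error or test can be given, each difference describes these libraries only, and cell type cannot be told apart from medium, cell number and preparation. In such bulk RNA, fewer cells that use a gene and less of its RNA per cell cannot be told apart either.

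SOCS proteins are brakes on cytokine signalling. A cytokine receptor activates Janus kinases (JAKs), which phosphorylate STAT transcription factors; STATs then switch on several SOCS genes, and the SOCS proteins bind the receptor or the kinase through an SH2 domain. A second domain, the SOCS box, joins elongins B and C and the cullin CUL5 into a ubiquitin ligase that marks the bound protein for breakdown. CIS (from Cish) and SOCS1 to SOCS3 have short amino-terminal regions and are the classical feedback members induced by cytokines, whereas SOCS4 to SOCS7 have long ones and are studied more for receptor tyrosine kinases and insulin signalling.

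Upstream sequence was matched for 4 of the 8 members, Cish, Socs1, Socs3 and Socs4, in windows from 250 bases before to 50 after the RefSeq transcript start (build GRCm38.p6). The stretches below are shown because they hold letters of the kinds of site through which STATs and interferon regulatory factors act on genes, and Socs3 is the member of widest ratio below. Capitals mark TTCNNNGAA, the core letters of a STAT site, which read the same on both strands, and GAAANNGAAA, the core letters bound by interferon regulatory factors, searched on both strands.
Cish, chr9:107296654-107296683, plus strand: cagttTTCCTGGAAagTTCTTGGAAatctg
Socs1, chr16:10785537-10785786, minus strand: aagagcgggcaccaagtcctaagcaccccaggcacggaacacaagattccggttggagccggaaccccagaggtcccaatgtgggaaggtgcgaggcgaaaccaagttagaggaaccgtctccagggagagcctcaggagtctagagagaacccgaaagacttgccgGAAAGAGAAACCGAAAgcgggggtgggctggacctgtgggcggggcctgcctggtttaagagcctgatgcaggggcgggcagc
Socs3, chr11:117969452-117969616, minus strand: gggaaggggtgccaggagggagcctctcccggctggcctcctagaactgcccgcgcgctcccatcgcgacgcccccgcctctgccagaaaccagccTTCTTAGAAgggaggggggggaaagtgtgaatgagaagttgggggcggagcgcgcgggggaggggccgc
The Cish window held 2 TTCNNNGAA matches, at bases 1 to 9 and 12 to 20 counted from the RefSeq start. The Socs3 window held 1, ending 146 bases before the start. Among all 32851 such windows, 8.30% held at least 1 match and 0.457% held 2 or more. The Socs1 window held no TTCNNNGAA but 2 GAAANNGAAA matches that overlap each other, the nearer of them ending 68 bases before the start, and 3.44% of all windows held that motif. Socs4 held neither. In the GENCODE annotation of GRCm38 the printed Cish stretch lies within an exon of that gene, and those of Socs1 and Socs3 lie outside any exon of theirs. The Socs3 stretch still lies inside the annotated span of its gene, chr11:117966079-117970047, whereas the Socs1 stretch lies outside that of Socs1. A match of letters is a description of the window and not evidence of binding.

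Both libraries carried the defining markers of their label. By the rule given below, the fibroblast library was the higher one for all 10 fibroblast markers and the macrophage library for all 10 macrophage markers. Ptprc, for CD45, is among the macrophage markers, and its low fibroblast value is not independent of the sort for CD45. Fibroblast markers summed to 12630 TPM in fibroblasts, against 28.3 TPM in macrophages, and macrophage markers to 39.9 TPM in fibroblasts, against 19274 TPM in macrophages. Of 12 markers of other cell types 3 reached 1 TPM in either library. S100a8, a neutrophil gene, had the highest single value, at 1.85 TPM in fibroblasts, against 157 TPM in macrophages. Mpo stood at 0.0802 TPM in fibroblasts, against 2.83 TPM in macrophages. Pecam1, an endothelial gene, stood at 1.97 TPM in fibroblasts, against 1.33 TPM in macrophages. The neutrophil gene Ly6g was listed at 0 in both. The part of other cell types in the values below was not tested. Genes at 1 TPM or more numbered 12561 in fibroblasts, against 11429 in macrophages.

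Most SOCS genes had low values in both cell types, and the family's summed value was larger in fibroblasts. The 8 genes summed to 107 TPM in fibroblasts, against 65.6 TPM in macrophages, a 1.64-fold difference. Single members lay between 3.92 and 36.7 TPM in fibroblasts, with a median of 8.88, and between 0.639 and 33.2 TPM in macrophages, with a median of 5.62. For scale, the median gene at 1 TPM or more stood at 20.5 TPM in either library. Only Socs5 in fibroblasts and Socs6 in both libraries stood above that median. In fibroblasts 7 of the 8 reached 5 TPM, all but Cish, and in macrophages 4 did, Socs4 to Socs7.

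**Figure D1:**
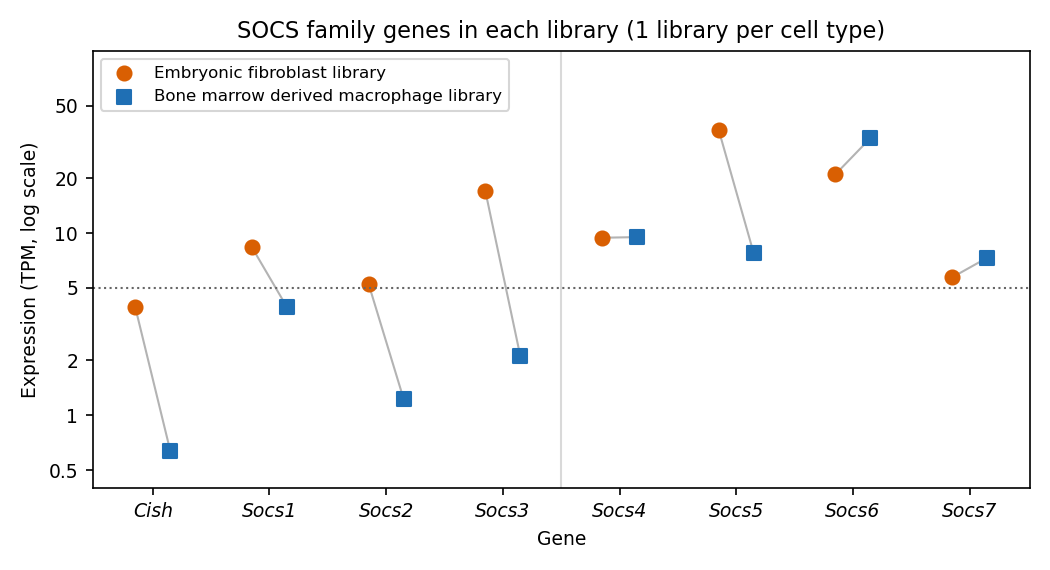
Expression of each SOCS family gene in TPM on a log scale; circles are the fibroblast library, squares the macrophage library, lines join a gene's values, and the dotted line marks 5 TPM. Cish and Socs1 to Socs3 all sat below 5 TPM in the macrophage library, whereas Socs4 to Socs7 sat above it in both.

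The leading member was a different gene in each library. In fibroblasts Socs5 came first at 36.7 TPM, before Socs6 at 21.0, Socs3 at 17.0, Socs4 at 9.42, Socs1 at 8.34, Socs7 at 5.71, Socs2 at 5.24 and Cish at 3.92. In macrophages Socs6 came first at 33.2 TPM, before Socs4 at 9.50, Socs5 at 7.73, Socs7 at 7.31, Socs1 at 3.92, Socs3 at 2.11, Socs2 at 1.23 and Cish at 0.639. Without replicates it cannot be said which neighbours in these orders differ. Socs6 alone made up 19.6% of the family's TPM in fibroblasts and 50.6% in macrophages. Socs5 and Socs3 made up 34.2% and 15.8% in fibroblasts, against 11.8% and 3.21% in macrophages. The ratio of Socs5 to Socs6 was 1.75 in fibroblasts and 0.233 in macrophages.

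**Figure D2:**
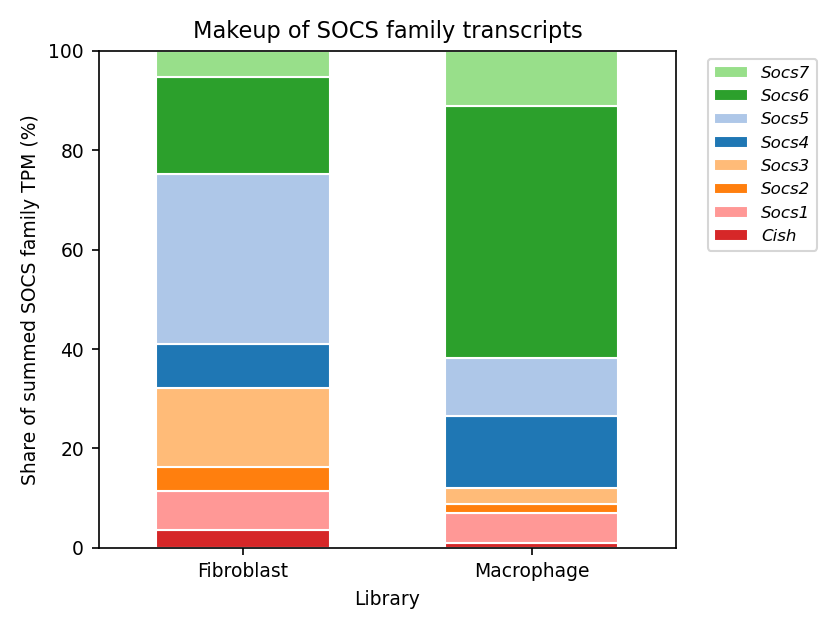
Share of the summed SOCS family TPM held by each gene, in percent, with the fibroblast library on the left and the macrophage library on the right. Socs5 was the widest band in fibroblasts at 34.2%, and Socs6 in macrophages at 50.6%.

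All 4 cytokine-induced members, Cish and Socs1 to Socs3, had the larger value in the fibroblast library, though Socs3 alone passed the size rule given below. That direction is common: 61.5% of the 11191 genes at 5 TPM or more in either library, which leave out Cish, had it. Together they summed to 34.5 TPM in fibroblasts, against 7.89 TPM in macrophages, a 4.37-fold difference, and held 32.1% of the family's TPM in fibroblasts, against 12.0% in macrophages. Socs3, whose product binds gp130 and the JAKs and limits signalling of the interleukin 6 family, stood at 17.0 TPM in fibroblasts, against 2.11 TPM in macrophages. That 8.06-fold ratio was the widest in the family. The gene (ENSMUSG00000053113) is annotated at chr11:117966079-117970047 of GRCm38, minus strand. Cish, whose product acts on STAT5 signalling, stood at 3.92 TPM in fibroblasts, against 0.639 TPM in macrophages, a 6.13-fold ratio between 2 low values. Cish is overlapped on the other strand by Gm17040 and Gm17041 in the GENCODE annotation, and whether strand was used in the quantification is not given in the sources used. Socs2, which restrains growth hormone signalling, stood at 5.24 TPM in fibroblasts, against 1.23 TPM in macrophages, a 4.27-fold ratio. Socs1, which inhibits JAKs directly and limits interferon signalling, differed least of the 4, with 8.34 TPM in fibroblasts, against 3.92 TPM in macrophages, a 2.13-fold ratio. Socs3 was 2.04 times Socs1 in fibroblasts and 0.538 times Socs1 in macrophages.

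Among the long members Socs5 alone stood apart between the libraries. Socs5, linked to epidermal growth factor receptor and interleukin 4 signalling, stood at 36.7 TPM in fibroblasts, against 7.73 TPM in macrophages, a 4.75-fold ratio. Its gene (ENSMUSG00000037104) is annotated at chr17:87107679-87137839, plus strand. Socs4, its closest relative in the family, stood at 9.42 TPM in fibroblasts, against 9.50 TPM in macrophages. The ratio of Socs5 to Socs4 was therefore 3.90 in fibroblasts and 0.814 in macrophages. Socs6, which binds the receptor KIT, stood at 21.0 TPM in fibroblasts, against 33.2 TPM in macrophages, 1.58-fold higher in macrophages. Socs6 is overlapped in the GENCODE annotation by the processed pseudogenes AC118614.1, on the other strand, and AC122398.2 and AC122398.3, on its own strand. Socs7, which interacts with the adaptor NCK and with insulin receptor substrates, stood at 5.71 TPM in fibroblasts, against 7.31 TPM in macrophages, 1.28-fold higher in macrophages. These 4 genes summed to 72.8 TPM in fibroblasts, against 57.7 TPM in macrophages. Without Socs5 the other 3 summed to 36.1 TPM in fibroblasts, against 50.01 TPM in macrophages.

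For a yes-or-no call, a gene had to reach 5 TPM in its higher library and a ratio of 4-fold or more after 1 was added to both values. These calls have no replicate behind them, and log2 ratios are of TPM plus 1, fibroblast over macrophage. By this rule 2 of the 8 members were higher in fibroblasts, Socs3 with a log2 ratio of 2.53 and Socs5 with 2.11, and none in macrophages. Of the 11191 genes at 5 TPM or more in either library, 14.3% were higher in fibroblasts and 8.77% in macrophages, so 2 of 8 is not far from the background. Cish is not among those genes, here and in the backgrounds below, so on their footing the count is 2 of 7. Cish and Socs2, with log2 ratios of 1.59 and 1.49, passed 4-fold on the TPM themselves but not once 1 was added. Socs1 followed at 0.93, and Socs4, Socs7 and Socs6 at -0.01, -0.31 and -0.64. Lowering the limit to 2-fold added Socs2, which gave 3 of 8 in fibroblasts against a background of 23.6%, and none in macrophages against 15.2%. These 4-fold and 2-fold shares are the background of the list counts below. They leave out genes under 5 TPM in both libraries, some of which the lists hold. The family's median log2 ratio was 1.21, and the median of the 11191 genes was 0.26. Genes reaching 5 TPM in each of the libraries were shifted by 0.18 toward fibroblasts without the added 1. Scaling that removes this shift brought Socs5 to 1.94, under the limit, left Socs3 at 2.38, and put Socs4 at -0.17 and Socs6 at -0.81.

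**Figure D3:**
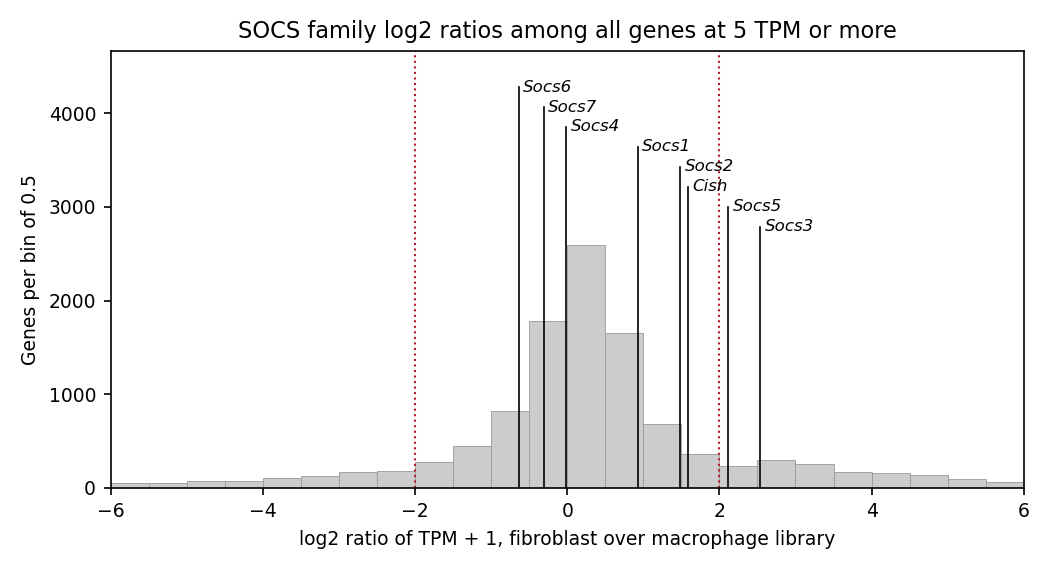
Histogram of the log2 ratio of TPM plus 1, fibroblast over macrophage, for the 11191 genes at 5 TPM or more in either library (350 lie beyond 6 in either direction), with a line at each SOCS gene and dotted lines at the 4-fold limits. The 8 genes lay between -0.64 and 2.53; Cish, below 5 TPM in both libraries, is drawn but not counted in the bars.

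Receptors and ligands of the gp130 family, upstream of Socs3, lay mostly on the fibroblast side. The list holds 7 receptor genes of that family, whose products signal through STAT3 and induce Socs3. Of these, 3 were called in fibroblasts (background 14.3%) and 1 in macrophages (background 8.77%). Their median log2 ratio was 1.79. Il6st, which encodes gp130, stood at 247 TPM in fibroblasts, against 23.6 TPM in macrophages, and the oncostatin M receptor gene Osmr at 57.2 TPM in fibroblasts, against 0.215 TPM in macrophages. Lifr, for the leukemia inhibitory factor receptor, stood at 9.42 TPM in fibroblasts, against 1.17 TPM in macrophages, whereas Il6ra, for the interleukin 6 receptor, stood at 3.14 TPM in fibroblasts, against 26.6 TPM in macrophages. Socs3 and Il6st lay on the same side, with 8.06-fold and 10.5-fold ratios. Il6ra here, and the receptor genes Il10ra, Il10rb and Csf3r given below, lay on the other side. Whether any of these receptors bears on the Socs3 value was not tested. Of the 7 gp130 cytokine genes at 1 TPM or more, 4 were higher in fibroblasts (background 14.3%) and 1 in macrophages (background 8.77%). The 4 became 1 with a minimum of 10 TPM and also with a pseudocount of 5, which brought the macrophage count to 0. Among them Clcf1 stood at 41.3 TPM in fibroblasts, against 0.110 TPM in macrophages, as the sum of 2 identical rows of 20.7 TPM in fibroblasts, against 0.0551 TPM in macrophages, so that it may be doubled. Ctf1, for cardiotrophin 1, stood at 8.96 TPM in fibroblasts and had a listed 0 in macrophages. Cntf stood at 8.58 TPM in fibroblasts, against 1.01 TPM in macrophages. Osm, for oncostatin M, was listed at 0 in fibroblasts and stood at 14.2 TPM in macrophages.

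Receptors of the STAT5, STAT6 and interleukin 10 branches that passed the rule were higher in macrophages, with Il13ra1 and Ghr as exceptions. None of the interferon receptor genes Ifnar1, Ifnar2, Ifngr1, Ifngr2 and Ifnlr1 passed the rule. Of 14 genes for receptors with the common gamma or beta chain, 10 reached 1 TPM. Of these, 6 were called in macrophages (background 8.77%) and 1 in fibroblasts (background 14.3%). Their median log2 ratio was -4.55. The common gamma chain gene Il2rg stood at 1.10 TPM in fibroblasts, against 145 TPM in macrophages, and the interleukin 7 receptor gene Il7r at 0.238 TPM in fibroblasts, against 104 TPM in macrophages. Csf2ra, for the granulocyte-macrophage factor receptor, stood at 8.99 TPM in fibroblasts, against 181 TPM in macrophages. Il13ra1, for an interleukin receptor chain, stood at 41.7 TPM in fibroblasts, against 8.67 TPM in macrophages, but lost its call once the shift between the libraries was removed. Cish and Socs2, the STAT5-linked members, lay on the fibroblast side, as given above. Of 9 interferon and interleukin 10 receptor genes, 2 were higher in macrophages, Il10ra at 0.0342 TPM in fibroblasts, against 44.6 TPM in macrophages, and Il10rb at 34.2 TPM in fibroblasts, against 272 TPM in macrophages. Their 8 listed ligand genes were all below 1 TPM in both libraries, with the highest, Il10, listed at 0 in fibroblasts and at 0.241 TPM in macrophages. Of the single-chain receptors, Ghr, for growth hormone, stood at 85.9 TPM in fibroblasts, against 0.229 TPM in macrophages, on the same side as Socs2. Csf3r, for the granulocyte factor, stood at 0.164 TPM in fibroblasts, against 15.2 TPM in macrophages.

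None of the 4 JAK genes passed the 4-fold rule. With the limit at 2-fold 1 was called in fibroblasts (background 23.6%) and 2 in macrophages (background 15.2%). Jak1, the most abundant, stood at 175 TPM in fibroblasts, against 75.3 TPM in macrophages, and Tyk2 at 12.3 TPM in fibroblasts, against 26.6 TPM in macrophages. Jak3, the partner of the common gamma chain, had the widest ratio of the 4, at 3.18 TPM in fibroblasts, against 11.4 TPM in macrophages, 3.58-fold higher in macrophages; it was named after its value was seen. Of the 7 STAT genes, 3 were called in macrophages (background 8.77%) and none in fibroblasts (background 14.3%). Their median log2 ratio was -1.69. Stat2, which acts in type I interferon signalling, stood at 18.9 TPM in fibroblasts, against 92.4 TPM in macrophages. Stat4 was listed at 0 in fibroblasts and stood at 6.01 TPM in macrophages. Socs1, the member tied to interferon signalling, was not higher in macrophages, at the values given above. Stat3, named here because it acts on Socs3 and chosen after its value was seen, stood at 95.5 TPM in fibroblasts, against 45.7 TPM in macrophages.

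**Figure D4:**
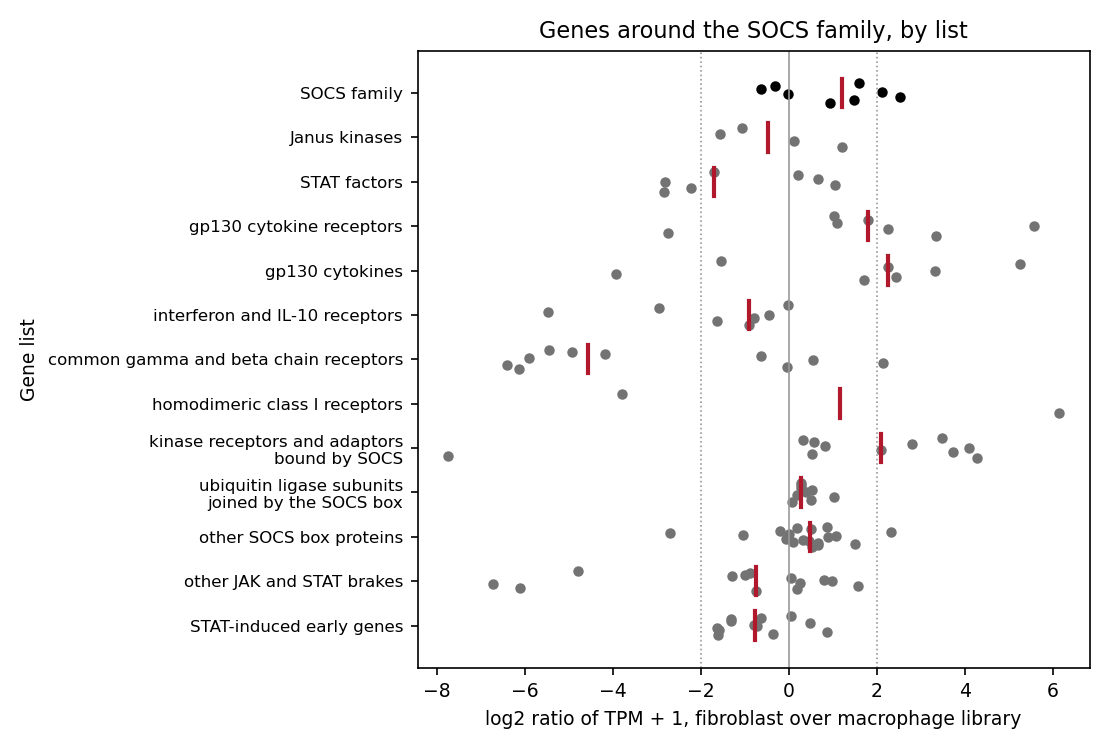
Log2 ratio of TPM plus 1, fibroblast over macrophage, for genes at 1 TPM or more in either library, by list; each point is a gene, the red bar the list's median, and the dotted lines the 4-fold limits. The SOCS genes spread from -0.64 to 2.53, and the STAT factors have a median of -1.69. The genes listed as ubiquitin ligase subunits, Cul2 and Ube2m among them, lie close together between 0.08 and 1.03.

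Among 13 genes for proteins that SOCS members bind outside the cytokine receptors, 6 were called in fibroblasts (background 14.3%) and 1 in macrophages (background 8.77%). The median log2 ratio was 2.10 over the 11 at 1 TPM or more. Sorbs3, for the adhesion protein vinexin, stood at 47.0 TPM in fibroblasts, against 3.29 TPM in macrophages. The focal adhesion kinase gene Ptk2 stood at 35.0 TPM in fibroblasts, against 4.14 TPM in macrophages, and the insulin-like growth factor receptor gene Igf1r at 31.0 TPM in fibroblasts, against 1.43 TPM in macrophages. Csf1r, for the CSF1 receptor, was the macrophage gene, at 2.00 TPM in fibroblasts, against 640.0 TPM in macrophages. Partners of single members, named for those roles after their values were seen, were Egfr and Il4ra for Socs5 and Irs1, Irs2 and Nck1 for Socs7. Egfr stood at 22.2 TPM in fibroblasts, against 0.197 TPM in macrophages, whereas Il4ra stood at 57.3 TPM in fibroblasts, against 58.8 TPM in macrophages. Irs1 stood at 16.3 TPM in fibroblasts, against 0.0149 TPM in macrophages. Irs2 and Nck1 did not pass the rule, with Irs2 at 10.9 TPM in fibroblasts, against 5.71 TPM in macrophages, and Nck1 at 41.9 TPM in fibroblasts, against 27.7 TPM in macrophages. Kit, the receptor bound by SOCS6, was near 0, at 0.0717 TPM in fibroblasts, against 0.402 TPM in macrophages.

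Genes listed around the ubiquitin ligase that the SOCS box recruits showed no difference past the rule. The list is wider than the CUL5 ligase, since it also holds Cul2, for another cullin, and Rbx1 and Ube2m. All 9 genes found were within the 4-fold limit. Their log2 ratios lay between 0.08 and 1.03, with a median of 0.28, near that of all genes. The elongin B gene Elob stood at 806 TPM in fibroblasts, against 570 TPM in macrophages, and Nedd8, whose product activates cullins, at 466 TPM in fibroblasts, against 385 TPM in macrophages. Cul5 was the lowest of them and was named after its value was seen, at 24.7 TPM in fibroblasts, against 11.6 TPM in macrophages. Of 29 other genes with a SOCS box, 18 reached 1 TPM and 1 passed the rule, Spsb4 at 1.07 TPM in fibroblasts, against 12.5 TPM in macrophages. Wsb2, the most abundant of these, stood at 237 TPM in fibroblasts, against 127 TPM in macrophages, more than all 8 SOCS genes together in either library, and Tulp4 stood at 102 TPM in fibroblasts, against 55.2 TPM in macrophages.

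Of 13 genes for other brakes on JAK and STAT signalling, 3 were called in macrophages (background 8.77%) and none in fibroblasts (background 14.3%). Their median log2 ratio was -0.75. The phosphatase genes Ptpn6, for SHP-1, and Ptprc, for CD45, stood at 2.02 TPM (Ptpn6) and 0.352 TPM (Ptprc) in fibroblasts, against 208 TPM (Ptpn6) and 142 TPM (Ptprc) in macrophages. Both are genes of blood cells, and CD45 was one of the proteins by which the fibroblasts were sorted. Usp18, which blocks interferon receptor signalling and is itself induced by interferon, stood at 1.84 TPM in fibroblasts, against 77.4 TPM in macrophages. These 3 brakes lay on the opposite side from Socs3 and Socs5. With the limit at 2-fold, 5 of the 13 were called in macrophages (background 15.2%) and 1 in fibroblasts (background 23.6%). That 1 was Ptpn11, for the phosphatase SHP-2, named after its value was seen, at 95.4 TPM in fibroblasts, against 31.5 TPM in macrophages.

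For the 7 members at 5 TPM or more in either library, which leaves out Cish, the most alike gene was sought among 139 genes of these lists, by the distance between log2 values of TPM plus 1 over the 2 libraries. Socs6 lay nearest to the interferon regulatory factor gene Irf1, at 20.4 TPM in fibroblasts, against 34.6 TPM in macrophages, a distance of 0.068. Socs4 lay nearest to Asb7, another SOCS box gene, at 9.26 TPM in fibroblasts, against 8.67 TPM in macrophages, a distance of 0.12. Socs7 lay nearest to Asb13, at 6.82 TPM in fibroblasts, against 5.29 TPM in macrophages, a distance of 0.46. Asb13 had its larger value in fibroblasts, whereas Socs7 had it in macrophages. Socs5 lay nearest to Il13ra1 at 0.23, Socs1 to the insulin receptor gene Insr at 0.34, Socs2 to Met at 0.43 and Socs3 to Igf1r at 0.90. Over 2 libraries such likeness is only that of a pair of levels.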

How the data were processed

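The authors deposited 1 table with a column per library. The submitters' processing notes name kallisto 0.43.1 with the build GRCm38. Which transcripts were quantified, how they were summed per gene and whether genes were filtered is not given in the sources used here. Per the labels' protocols, libraries came from a stranded Illumina poly(A) kit, read in pairs of 76 bases. The deposited values were taken as TPM from their range and totals, since the header names no unit: the columns sum to 999545 (fibroblast) and 999609 (macrophage). TPM keep no read depth, so counting intervals and detection limits cannot be given, and a listed 0 may be a failed estimate.

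The 34456 rows were added by symbol, with 28 date-like names kept apart by description, to 34295 genes. Log2 ratios used a pseudocount of 1. A gene was called where the ratio reached 4-fold and the higher value 5 TPM; no test was run. The procedure was tested on simulated data, with an assumed noise and with changes placed only in genes at higher levels than most members. The members, their division into short and long members, the lists and the rules were chosen with earlier results of these data known; all members are named, and of the other lists the 3 highest called genes at most in each direction, or the 2 highest genes where fewer than 2 passed. A gene that the rule takes is not reported here. Gene positions of the upstream windows are those of RefSeq on GRCm38.p6. Python 3.11.15 with pandas 2.3.3 was used.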

Additional observations from a re-analysis of the deposited data

How the results depend on the processing

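The count of 2 members higher in fibroblasts became 0 with a pseudocount of 5, where Socs3 stood at a log2 ratio of 1.63 and Socs5 at 1.71, and 1 with median-of-ratios scaling, where Socs5 stood at 1.94; a larger added constant shrinks the ratio of low genes by construction. Socs2 joined them with a pseudocount of 0.1, at 2.01. A minimum of 1 or 10 TPM or none, leaving out mitochondrial RNA and each library's 50 highest genes before rescaling, and the highest single row of a symbol left the count at 2, and no member was called in macrophages under any of these alternatives. The family's median log2 ratio ranged from 0.62 to 1.54 and its summed log2 ratio from 0.53 to 0.71. No paired analysis was possible because each cell type has 1 library, and for the same reason no library could be left out. Among log2 ratios of single members and call counts of the other lists, 332 recomputed values kept a member's call or stayed within 1.5-fold, and 23 moved further. Members gained a call in 2 more values and lost one in 3. Gained or lost calls were not followed gene by gene in the other lists. A list count that went from 3 to 2 is thus among the 332, and one that fell to 0 among the 23. Settings of the minimum and of the 2-fold limit cannot change a member's log2 ratio. Depth is unknown, so the precision of low values such as the 0.639 TPM of Cish in macrophages cannot be given.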

Other observations

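Genes known to be induced through STAT sites in several cell types, such as the survival gene Mcl1 and the kinase gene Pim1, had a median on the macrophage side, whereas all of Cish and Socs1 to Socs3 had larger values in fibroblasts. So did 61.5% of the 11191 genes at 5 TPM or more in either library. Of 12 such genes, each reaching 1 TPM in 1 library or both, none passed the 4-fold rule, and their median log2 ratio, fibroblast over macrophage, was -0.77. Ccnd1, for cyclin D1, stood at 245 TPM in fibroblasts, against 383 TPM in macrophages, and Mcl1 at 83.5 TPM in fibroblasts, against 209 TPM in macrophages. With the limit at 2-fold, 5 of the 12 were higher in macrophages (background 15.2%) and none in fibroblasts (background 23.6%). Pim3, Cebpd and Myc had the larger value in fibroblasts, with log2 ratios of 0.87, 0.49 and 0.06. Pim1, a common companion of Cish among STAT5 targets, was named after its value was seen and stood at 10.3 TPM in fibroblasts, against 33.6 TPM in macrophages, where Cish stood at 3.92 TPM in fibroblasts, against 0.639 TPM in macrophages. The difference between these lists was not tested.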
